A study of Homo sapiens with 6 samples.

Results

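The 42 genes described here encode the machinery that licenses and copies DNA in S phase, together with the enzymes that supply its building blocks and the factors that switch the programme on. They were taken as a list of gene symbols with these functions. No measured value enters the rule, but the list was drawn up with earlier results of these data known. All 42 were found among the 19198 genes of the normalized count table and passed the filter on low values. The values came from RNA-Seq of MCF10A, an immortalized but non-tumorigenic human mammary epithelial cell line, in 6 samples. In 3 samples the cells were grown with growth factors, meaning EGF at 20 ng/ml, hydrocortisone at 0.5 µg/ml, insulin at 10 µg/ml and cholera toxin at 100 ng/ml, and in the other 3 all of these were left out. The medium of both groups held 5% horse serum, so the depleted cells were not deprived of serum. The labels number replicates 1 to 3 in each group, while the design text of the deposit speaks of 2 replicates. The day on which the RNA was taken is not given in the sources used here, and nothing says that replicates were separate cultures, so the spread between them, and any p-value built on it, may be technical.

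Before a chromosome can be copied, the origin recognition complex with CDC6 and CDT1 loads the ring-shaped MCM helicase onto origins in G1. At the entry to S phase, CDC45 and the GINS complex join the rings, DNA is unwound, and primase and the replicative polymerases copy both strands with the sliding clamp PCNA. Most of these genes are transcribed in waves under E2F factors. These factors are released when cyclin-dependent kinases, CDK2 with cyclin E among them, inactivate the retinoblastoma proteins. The mRNA level of the set in a culture is therefore widely used as a readout of how many of its cells are entering or passing S phase. In a bulk sample, fewer cells in S phase and less of these mRNAs per cell cannot be told apart.

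The libraries held between 7472418 and 28672630 reads on genes. The fewest reads behind any value of the 42 genes were 25, for POLE2 in depleted replicate 3, so each value was above the floor of 3 reads, which covers counting error only. The labels call the cells luminal ductal cells, and the keratins KRT8 and KRT18 were present in every sample, at 2442 or more and 1716 or more normalized counts. The basal genes were uneven. KRT5, KRT17 and ITGB4 were at 562 or more in every sample, while KRT14 ranged from 12.8 to 980.3 and TP63 from 270.7 to 1615.3 normalized counts with growth factors and from 8.2 to 64.9 without. The summed level of 11 fibroblast or mesenchyme genes was between 3953 and 11453 normalized counts with growth factors and between 129057 and 194647 without. Some libraries stood apart. Depleted replicate 1 held the adhesion gene CDH1 at 609.6 normalized counts and KRT5 at 562, against at least 12961 and 10908 in each other sample. In this library VIM, COL1A2, COL3A1, DCN, LUM, PDGFRA and PDGFRB were higher than in both other depleted samples. VIM was at 44833.5, against 16541.7 and 19282.7, and PDGFRB at 3322.5, against 348.8 and 447.2. FN1, CDH2 and THY1, the last near the floor, were lower than in both, and COL1A1 lay between. The libraries also differed with transcript length, since Spearman's correlation across 13035 genes between length and a sample's deviation from the gene mean was -0.36 in growth factor replicate 2 and 0.37 in growth factor replicate 3. Genes are not independent replicates, and these correlations are given as a description. The part of these marker and length differences in the results on the replication genes was not tested beyond the fits without a sample and with a correction for length given here.

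No difference of the replication genes between depleted and control cells was detected. With limma, 0 of the 42 genes passed a Benjamini-Hochberg adjusted p of 0.05 in either direction, beside 6.33% of all 16988 genes tested. At an unadjusted p of 0.05, 1 gene passed, beside 20% of all genes. This gene was POLE, the catalytic subunit of the leading strand polymerase (limma, unadjusted p = 0.0475, adjusted p = 0.243). The count tests gave the same picture. edgeR called 0 of 42 beside 5.72% of all genes, with 0 at an unadjusted p of 0.05 beside 20.1%, and DESeq2 called 0 of 42 beside 12.9%, with 1 at an unadjusted p of 0.05 beside 22.5%. The log2 fold changes of depleted over control cells ran from -0.94 for ORC1 to 0.90 for TYMS with a median of 0.01, beside -0.03 over all genes, and 20 of the 42 were negative. The median depends on the scale, since it was -0.20 in edgeR and -0.23 in DESeq2, which compare mean counts and not mean logarithms. Over all genes the medians were -0.07 in edgeR and -0.10 in DESeq2. Of the 42 genes, 30 and 31 were negative in these tests, and the shares over all genes are not given.

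A p above the threshold does not show that the levels were alike. The 95% intervals of the log2 fold changes reached a median of 1.22 to either side, and for 41 of the 42 genes the interval reached a 2-fold difference in at least 1 direction. The exception was PRIM2, whose interval ran from -0.92 to 0.94. In no gene were the groups separate. The count of genes with every depleted sample below every control sample was 0, beside 12.1% of all genes, and the count with every depleted sample above every control sample was 0, beside 13.5%.

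**Figure D1:**
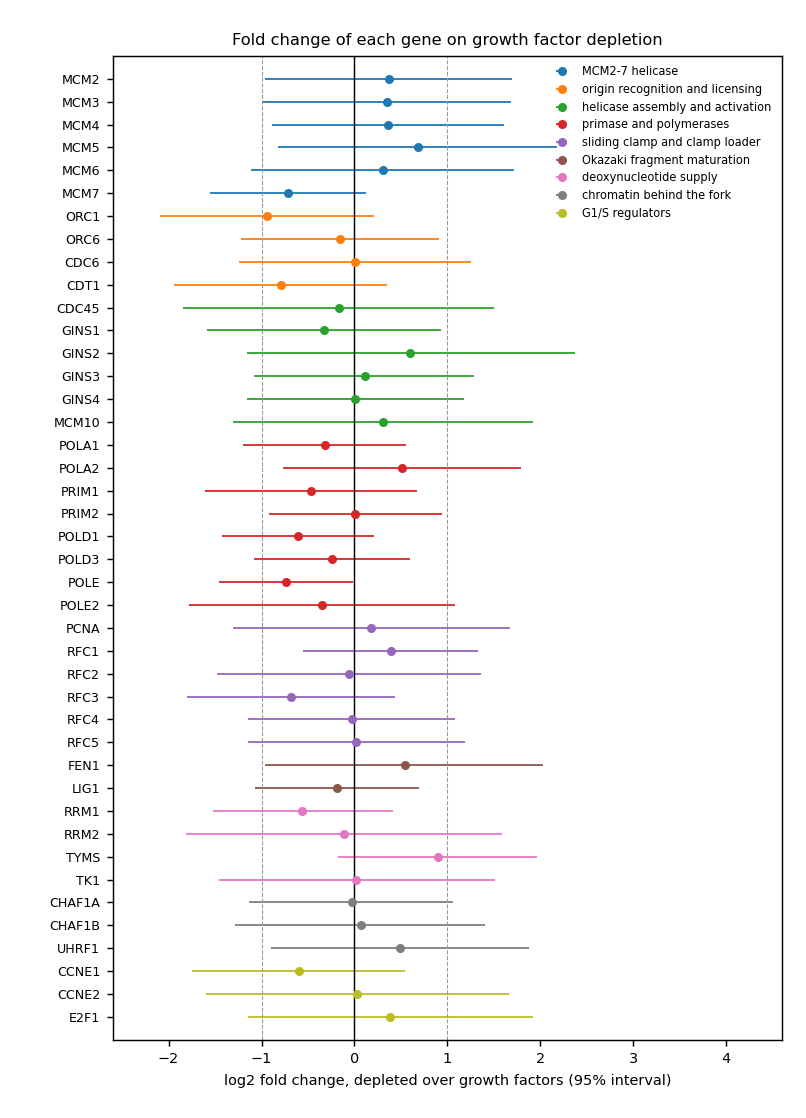
Log2 fold change of each of the 42 genes, depleted over growth factor samples (x axis), as points with 95% intervals from limma, by gene (y axis) and coloured by role. Every interval but that of POLE crosses 0, and the estimates lie between -0.94 and 0.90.

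The spread between samples was larger with growth factors than without. Across the 42 genes the median SD of the log2 level was 1.08 among the 3 growth factor samples and 0.35 among the 3 depleted samples, beside 0.60 and 0.35 over all genes tested. The control SD was the larger of the pair in 41 of 42 genes, beside 71.7% of all genes. Relative to each gene's mean over the 6 samples, the median log2 level of the set was 0.21, 1.03 and -1.15 in growth factor replicates 1, 2 and 3, and 0.28, -0.20 and -0.18 in depleted replicates 1, 2 and 3. The depleted samples thus lay between the highest and the lowest control sample.

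The order of the control samples was nearly the same in every gene. From high to low, the controls ran in the order replicate 2, replicate 1, replicate 3 in 40 of 42 genes (95.2%), beside 24.2% of all genes tested. Growth factor replicate 2 was the highest of the 6 samples in 38 genes (90.5%, beside 20.8% of all genes) and growth factor replicate 3 the lowest in 35 (83.3%, beside 26.4%). In 39 genes replicate 2 was at least 2-fold above replicate 3, beside 21.2% of all genes. In 32 genes all 3 depleted samples lay between the lowest and the highest control sample, beside 29.6% of all genes. Within the depleted group, replicate 1 was the highest in 39 genes, beside 39% of all genes, and the highest sample was at least 2-fold above the lowest in 5 genes, beside 30% of all genes. Summed over the set, the normalized counts were 33850, 57390 and 15219 with growth factors, against 38880, 26066 and 25892 under depletion. These sums are 0.186%, 0.342% and 0.101% of all normalized counts in the controls and 0.249%, 0.163% and 0.155% in the depleted samples.

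**Figure D2:**
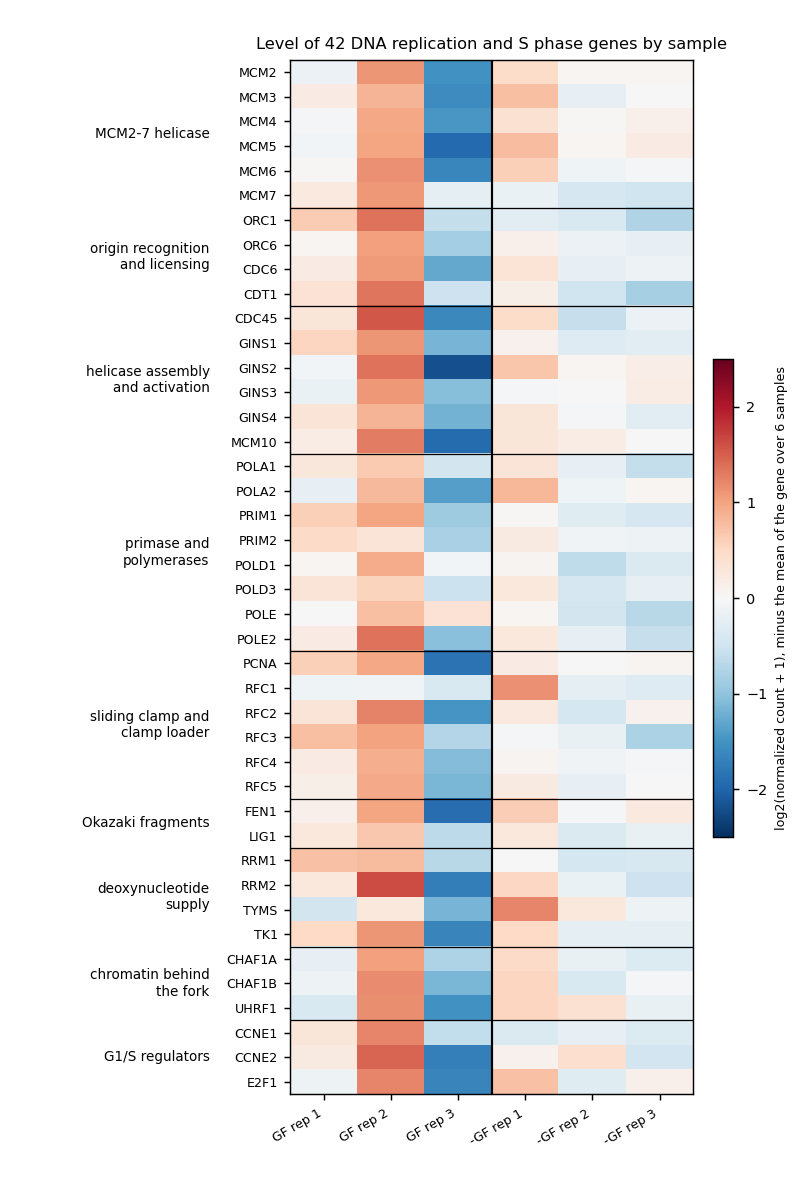
Level of the 42 genes (rows, by role) in each sample (columns, GF with growth factors, -GF without), as log2(normalized count + 1) minus the gene's mean over the 6 samples. Growth factor replicate 2 is the highest sample in 38 rows and growth factor replicate 3 the lowest in 35, and the depleted samples lie mostly between them.

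Growth factor replicates 2 and 3 are also the libraries that differed most with transcript length, so the set was looked at after a correction for length and GC content. The set medians became 0.20, 1.01 and -0.99 with growth factors and 0.33, -0.20 and -0.25 without, and replicate 2 remained the highest in 39 genes and replicate 3 the lowest in 33. Across the 42 genes, Spearman's correlation of the log2 ratio of replicate 2 over replicate 3 with the length of the longest transcript was -0.11, beside -0.46 across 13035 genes. Rescaling to the same total gave set medians of 0.99 and -1.04 for replicates 2 and 3, and quantile normalization gave 0.92 and -1.13.

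The promoters of the 42 genes were searched for sequence words of the E2F type. Whether a match goes with the shared movement from sample to sample was not tested. The promoter collection used, built on RefSeq start sites on GRCh38.p14, covered 37 of the 42 genes. It held 48 windows of 300 bases for them, running from 250 bases before to 50 after the start. MCM4, MCM5, POLD3, GINS4 and CCNE2 had no window in this collection, which does not mean that they lack a RefSeq start site. At least 1 of the words TTTGGCGC, TTTCGCGC, TTTCCCGC and TTTGCCGC, on either strand, occurred in the windows of 19 of the 37 genes (51.4%), beside 3.99% of 27305 genes, and in 20 of 48 windows (41.7%), beside 3.31% of 35116 windows. The stricter pair TTTGGCGC and TTTCGCGC occurred in 12 of the 37 genes (32.4%), beside 1.4% of all genes. The CCAAT box, read as CCAAT on either strand, occurred in 22 of the 37 genes (59.5%), beside 39.7% of all genes. Words on opposite strands can share bases, and such overlapping matches were counted separately. The 27305 genes were not matched to the set for expression or GC content. A match is a run of letters and not a shown binding site, and a window without a match says only that these words are not in it.

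Windows with 2 or more matches belonged to 5 genes, namely 4 helicase subunits and E2F1. They are shown because they hold the most matches, each cut to the stretch that holds the matches with 15 bases on either side, 5′ to 3′ along the gene's strand, with the matched words in capitals. MCM6 (chr2:135876507-135876610, minus strand) held 4 matches between 152 and 86 bases before the start, as a pair of overlapping words that occurs at 2 places. MCM2 (chr3:127598398-127598439, plus strand) held 2 overlapping matches just after the start. MCM3 (chr6:52284724-52284931, minus strand), MCM7 (chr7:100101384-100101599, minus strand) and E2F1 (chr20:33686383-33686433, minus strand) held 2 separate matches each.
MCM6: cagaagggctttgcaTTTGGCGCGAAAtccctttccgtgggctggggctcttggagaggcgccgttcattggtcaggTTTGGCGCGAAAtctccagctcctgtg
MCM2: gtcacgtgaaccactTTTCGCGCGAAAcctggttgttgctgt
MCM3: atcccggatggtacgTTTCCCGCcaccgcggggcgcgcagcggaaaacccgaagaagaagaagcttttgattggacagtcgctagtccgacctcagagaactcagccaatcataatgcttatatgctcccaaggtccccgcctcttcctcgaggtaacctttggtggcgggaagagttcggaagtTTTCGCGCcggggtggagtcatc
MCM7: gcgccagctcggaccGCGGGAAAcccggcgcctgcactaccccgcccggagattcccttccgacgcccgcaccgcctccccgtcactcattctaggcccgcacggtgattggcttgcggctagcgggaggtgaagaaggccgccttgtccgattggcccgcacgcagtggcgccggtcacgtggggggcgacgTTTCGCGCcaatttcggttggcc
E2F1: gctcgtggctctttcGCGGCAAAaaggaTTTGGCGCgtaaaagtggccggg

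The helicase subunits MCM2 to MCM7 form the hexameric ring that unwinds DNA at the fork. MCM2 read 917.4, 2179 and 352.2 normalized counts with growth factors, against 1399, 1048 and 1040 under depletion. MCM5 read 833.4, 1741 and 225.3 against 1482, 899.6 and 1011. In both genes all depleted samples lay inside the range of the controls, which spanned 6.19-fold in MCM2 and 7.73-fold in MCM5. MCM3 (1934, 3015 and 568.6 against 2822, 1456 and 1664), MCM4 (2573, 5222 and 974.9 against 3484, 2735 and 2916) and MCM6 (929.9, 2008 and 296.1 against 1385, 851.7 and 889.9) had the same shape. The log2 fold changes of these 5 genes were between 0.31 and 0.68, with standard errors of 0.55 to 0.66. MCM7 was set apart from its partners. It read 3015, 5381 and 2145 with growth factors against 2271, 1909 and 1816 without, a log2 fold change of -0.71 ± 0.37 (SE, n = 3 and 3), with limma's adjusted p = 0.334. Growth factor replicate 3, the lowest sample of the other subunits by far, held MCM7 at a level near those of the depleted cells.

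The ring holds each subunit in equal number, so the subunits were also set side by side per kilobase of exons. MCM7 made up 31.4%, 29.9% and 50% of the summed MCM2 to MCM7 level per kilobase with growth factors and 18.9%, 23.9% and 21.6% without. These groups did not overlap. MCM5 made up 5.9%, 6.6% and 3.6% against 8.4%, 7.7% and 8.2%, also without overlap, and the shares of MCM2, MCM3, MCM4 and MCM6 overlapped between the groups. Which shares overlapped depends on the length used, since MCM4 was also higher in every depleted sample over the longest or the canonical transcript, and MCM2 over the canonical transcript, where MCM7 and MCM5 remained without overlap. Over the length of the canonical transcript in place of all exons, the MCM7 share was 43.2% ± 11.4 (SD, n = 3) with growth factors and 26.0% ± 2.5 (SD, n = 3) without. The shares of a sample are parts of 1 total, so a lower share of MCM7 by itself raises the share left to its partners. The higher shares of MCM5, MCM4 and MCM2 are therefore not findings independent of MCM7. The normalized counts of MCM5 and of MCM7 overlapped between the groups. The separations in the shares were noticed in the values and carry no test, and no background over all genes is given for them. The exons of MCM7 overlap those of AP4M1 on the other strand and of the microRNA MIR93 on its own strand, and the strand setting of the authors' counting is not given in the sources used here.

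**Figure D3:**
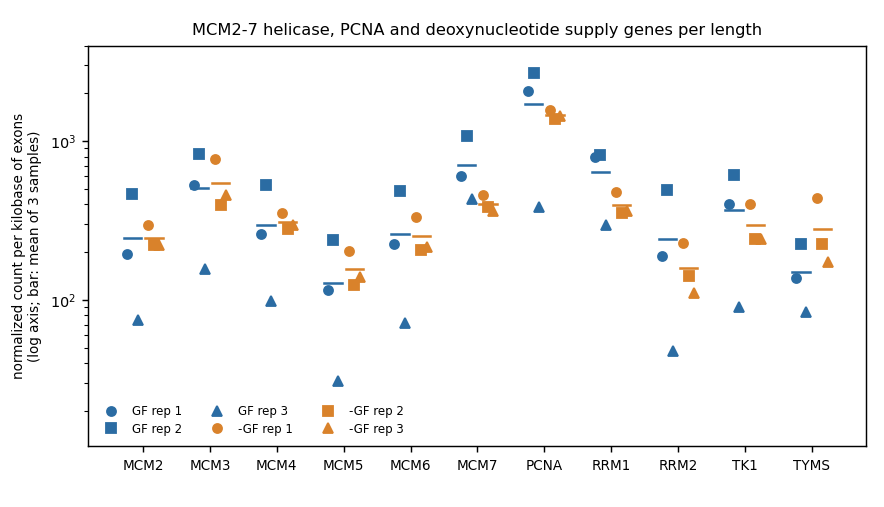
Normalized count per kilobase of exons (y axis, log scale) of MCM2 to MCM7, PCNA and the 4 deoxynucleotide supply genes (x axis) in each sample, with bars at the mean of 3 samples, growth factor samples in blue and depleted samples in orange. Growth factor replicate 3 (blue triangles) is the lowest sample in 10 of the 11 genes, and in MCM7 all 3 depleted samples lie close to it.

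The factors that load the helicase had a median log2 fold change of -0.47 over 4 genes, and none passed the test. ORC1, the subunit of the origin recognition complex whose level cycles with G1, read 314.6, 515.5 and 133.8 normalized counts with growth factors, against 168.4, 153.4 and 118.5 under depletion (log2 fold change -0.94 ± 0.50, limma adjusted p = 0.359). CDT1, the loading factor that geminin restrains, read 401, 789.1 and 218.4 against 345.1, 219.6 and 174.4 (-0.79 ± 0.50, adjusted p = 0.442). In both, growth factor replicates 1 and 2 were above all depleted samples, and replicate 3 was among them. CDC6, the ATPase that works with CDT1, read 685.5, 1251 and 244.9 against 754.2, 519.3 and 545.6, and ORC6, the smallest origin recognition subunit, read 365.9, 720 and 194.8 against 387.2, 318 and 304.1. For CDC6 and ORC6 the depleted samples lay inside the control range.

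The genes that turn the loaded ring into an active helicase had a median control SD of 1.38 on the log2 scale and included the gene with the widest control range of the set. This gene, the GINS subunit GINS2, read 328.3, 879.4 and 73.8 normalized counts with growth factors, an 11.9-fold difference between replicates 2 and 3, and 555.6, 354.7 and 382.3 without. CDC45, the partner of GINS and the ring, read 243.1, 575.3 and 63.9 against 271.8, 131.8 and 176.6, and MCM10, which acts when the helicase starts, read 350.9, 745.2 and 79.7 against 376.2, 348.2 and 304.1. The ratio of replicate 2 to replicate 3 was 9.0 in CDC45 and 9.35 in MCM10, while the depleted samples of MCM10 stayed within 1.24-fold. The remaining GINS subunits GINS1 (483.8, 720 and 148.5 against 358.8, 267.5 and 272.8), GINS3 (203, 483.3 and 109.2 against 224.2, 230.1 and 259.4) and GINS4 (421.1, 606.4 and 147.6 against 413.7, 328.5 and 281.7) had control ranges of 4.11-fold to 4.85-fold. The 6 log2 fold changes were between -0.33 and 0.60, with adjusted p-values of limma of at least 0.734.

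Primase and polymerase subunits had the narrowest control spread of the 9 role groups, with a median control SD of 0.64, and 6 of their 8 log2 fold changes were negative. POLE read 1164, 1966 and 1505 normalized counts with growth factors, against 1203, 854.3 and 722.2 under depletion, and only depleted replicate 1 reached the range of the controls. Its log2 fold change was -0.74 ± 0.32, and growth factor replicate 3 was not its lowest sample. POLD1, the catalytic subunit of the lagging strand polymerase, read 581.5, 1070 and 540.1 against 589.4, 363.2 and 440.5 (-0.61 ± 0.36). POLE2, an accessory subunit of the POLE complex, read 97.8, 216.2 and 40.3 against 101.6, 72.8 and 55.9, and POLD3, an accessory subunit with POLD1, read 654.2, 770.4 and 361 against 627.9, 388.8 and 451.7. The ratio of replicate 2 to replicate 3 of the controls was 1.31 in POLE and 1.98 in POLD1, below the 5.36 of POLE2 and the 2.13 of POLD3. The primase subunits, which lay down the RNA primer, were PRIM1 (353.4, 461.1 and 125.9 against 236.1, 187.5 and 174.4) and PRIM2 (377.2, 335.7 and 153.5 against 315.8, 252.4 and 248.2). Their partners in the polymerase that extends the primer were POLA1 (610.3, 792.1 and 366.9 against 631.5, 436 and 330.9) and POLA2 (204.3, 413 and 90.5 against 421.9, 217.7 and 243.7). All 4 overlapped between the groups, and their log2 fold changes were between -0.47 and 0.51. A pseudogene is named after PRIM2, and reads of near-identical copies cannot be told apart here, which also holds for 7 others of the 42 genes, PCNA, RRM2 and TYMS among them.

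PCNA, the ring that tethers the polymerases to DNA, read 2903, 3773 and 538.1 normalized counts with growth factors, against 2207, 1935 and 2019 under depletion. The depleted samples lay within 1.14-fold of each other, while the controls spanned 7.01-fold. Its log2 fold change was 0.18 ± 0.65, although the mean of the depleted samples was 0.85 of the mean of the controls on the linear scale, so the direction for PCNA depends on the scale. The clamp loader opens this ring, and its small subunits were RFC2 (569, 1079 and 163.3 against 540, 335.7 and 487.4), RFC3 (553.9, 656.7 and 195.8 against 317.6, 287.2 and 190.1), RFC4 (371, 603.4 and 151.5 against 334.1, 302.3 and 315.3) and RFC5 (328.3, 572.4 and 132.8 against 345.1, 256.4 and 295.1). Among them RFC3 had the most negative log2 fold change, at -0.68 ± 0.49, and the other 3 were between -0.06 and 0.02. The large subunit RFC1 did not share the pattern. It read 1788, 1796 and 1472 with growth factors, a range of 1.22-fold, and 4258, 1638 and 1527 without, so that depleted replicate 1 was 2.79-fold above depleted replicate 3 and the other 5 samples were close to each other. Without depleted replicate 1 its log2 fold change was -0.09, against 0.39 with all samples.

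The enzymes that finish lagging strand fragments were FEN1, the flap endonuclease, and LIG1, the ligase. FEN1 read 594, 1082 and 144.6 normalized counts with growth factors, against 834.7, 526.5 and 650.7 under depletion (log2 fold change 0.54 ± 0.66), and LIG1 read 815.9, 1097 and 433.8 against 817.4, 531.7 and 601.5 (-0.19 ± 0.39). In both, replicate 3 of the controls was the lowest sample and replicate 2 the highest.

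In the supply of deoxynucleotides, the subunits of ribonucleotide reductase, which makes deoxynucleotides from ribonucleotides, differed in their spread. RRM2, the subunit whose level sets the activity in S phase, read 1740, 4502 and 434.8 normalized counts with growth factors, a 10.4-fold range, and 2083, 1289 and 1006 without. RRM1, the large subunit, read 3370, 3488 and 1248 against 2019, 1493 and 1529, and growth factor replicates 1 and 2 were above all depleted samples. TK1, the thymidine kinase of S phase, read 745.7, 1134 and 167.2 against 743.2, 447.8 and 447.2. TYMS, thymidylate synthase, had the highest log2 fold change of the 42 genes, at 0.90 ± 0.47 (limma adjusted p = 0.343). It read 332.1, 546 and 203.6 with growth factors, against 1058, 543.5 and 418.1 under depletion, and growth factor replicate 2 lay between the depleted samples. Without depleted replicate 1, whose value was the highest, the log2 fold change of TYMS was 0.52. TYMS exons overlap those of ENOSF1 and TYMSOS on the other strand. Among the 42 genes, 16 have an exon overlap on the other strand and 7 on the same strand. PRIM1 (with NACA), FEN1 (with FADS2), POLD1 and POLA2 are among the 7. The effect of these overlaps on the counts was not tested.

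The genes that rebuild chromatin behind the fork followed the shared pattern. CHAF1A, a subunit of the chromatin assembly factor that brings histones to new DNA, read 388.5, 911.6 and 260.7 normalized counts with growth factors, against 620.6, 395.4 and 351 under depletion, and its partner CHAF1B read 162.9, 402.5 and 79.7 against 258.1, 135.7 and 172.2. UHRF1, which guides maintenance methylation of DNA to new strands, read 404.8, 1172 and 183 against 763.3, 681.9 and 462.8. Their log2 fold changes were -0.03, 0.07 and 0.49, and the groups overlapped in each.

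The regulators of the G1 to S transition were the cyclins CCNE1 and CCNE2, partners of CDK2, and the transcription factor E2F1. E2F1 read 234.4, 595.8 and 80.7 normalized counts with growth factors, against 428.4, 208.5 and 281.7 under depletion, and CCNE2 read 362.2, 853 and 94.4 against 337.7, 415 and 223.6. Replicate 2 of the controls was 7.39-fold above replicate 3 in E2F1 and 9.03-fold in CCNE2. CCNE1 read 144.1, 270.7 and 75.7 against 90.6, 100.3 and 91.7, with depleted samples within 1.11-fold of each other and a log2 fold change of -0.60 ± 0.50. All 3 had their highest level in growth factor replicate 2 and their lowest in growth factor replicate 3.

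Per kilobase of exons, PCNA had the highest level of the 42 genes, at 1714 ± 1193 normalized counts per kilobase with growth factors (SD, n = 3) and 1464 ± 99.2 without (SD, n = 3). MCM7 followed at 708 ± 338 with growth factors and RRM1 at 638 ± 298, a difference well inside their spread. At the low end were POLA2 at 19.7 ± 13.6, POLA1 at 37.9 ± 13.7 and POLE2 at 40.1 ± 30.5 with growth factors, which did not differ beyond their spread. The order at the low end depends on the length used, since over canonical transcripts CHAF1B was the lowest.

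Because growth factor replicate 3 was the lowest sample of most genes, the comparison was also made without it. The median log2 fold change of the 42 genes was then -0.58, with 40 of 42 negative, and 15 genes had every depleted sample below both remaining controls (26.9% of all genes did). With limma, 3 of the 42 genes passed at an adjusted p of 0.05, all lower without growth factors, beside 7.05% of all genes. These were ORC1 (chr1:52372829-52404423, minus strand), with a log2 fold change of -1.47 and an adjusted p = 0.0317, RRM1 (chr11:4094707-4138932, plus strand), with -1.04 and 0.0324, and RFC3 (chr13:33818069-33966558, plus strand), with -1.22 and 0.0420. The share called was therefore near that of all genes. Leaving out growth factor replicate 2 turned the median to the other side, at 0.52 with 11 of 42 negative and 0 genes called. Without depleted replicate 1, in which CDH1 and KRT5 were low, the median was -0.17 with 28 of 42 negative. Leaving out any of the remaining samples gave medians of 0.07 or 0.08, and 0 genes were called in each of these fits. The direction of the set on growth factor depletion thus depended on which control samples were used, and the labels give no ground for leaving out any of them.

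**Figure D4:**
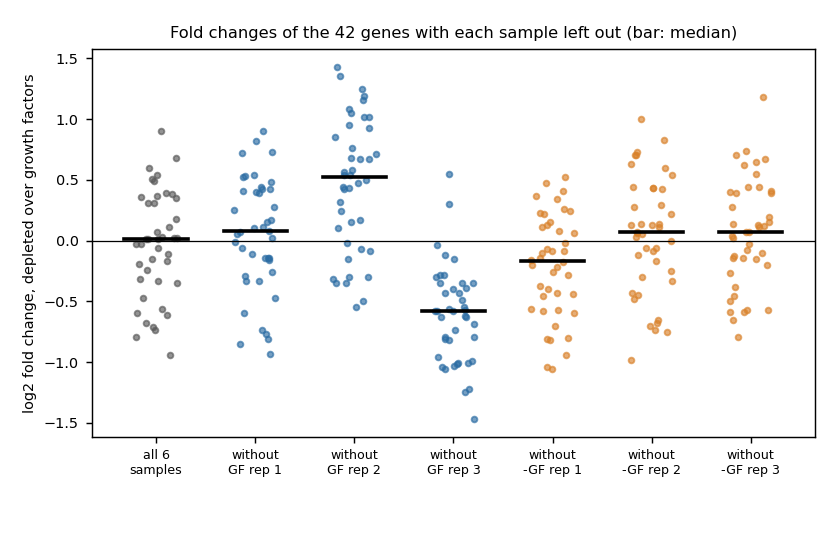
Log2 fold changes of the 42 genes, depleted over growth factor samples (y axis), with all 6 samples and with each sample left out in turn (x axis), 1 point per gene and a bar at the median. The median is 0.01 with all samples, -0.58 without growth factor replicate 3 and 0.52 without growth factor replicate 2.

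With the shared swing taken out, the groups did not overlap in some of the genes. The level of each gene was set against the median of the 42 genes in the same sample, which lowered the median SD among the controls from 1.08 to 0.35. On this relative scale, 11 genes had every depleted sample below every control sample, and for all 16988 genes the share was 6.85%. The 11 genes were MCM7, ORC1, CDT1, GINS1, PRIM1, POLD1, POLE, POLE2, RFC3, RRM1 and CCNE1. A further 4 genes, MCM5, POLA2, FEN1 and TYMS, had every depleted sample above every control sample, and for all genes the share was 5.97%. The shares over all genes are no like background, since most genes do not share the swing and subtracting it adds spread to them. On the log2 scale, ORC1 stood at -0.52, -0.67 and -0.49 relative to the median with growth factors and at -1.76, -1.29 and -1.62 without. MCM7 stood at 2.74, 2.71 and 3.50 against 1.99, 2.34 and 2.31. TYMS stood at -0.44, -0.59 and 0.11 against 0.89, 0.53 and 0.19. After the correction for length and GC content, 6 of the 11 genes (MCM7, ORC1, CDT1, POLD1, POLE and CCNE1) and 3 of the 4 (MCM5, POLA2 and FEN1) still separated the groups. No share over all genes is given for this corrected scale, so these counts have no background beside them. The median was made from the same genes, so this is a description. With the set median of each sample as a covariate in limma, 0 of 42 genes passed an adjusted p of 0.05 beside 9.65% of all genes, 9 of 42 passed at an unadjusted p of 0.05 beside 25.8% of all genes, and the lowest adjusted p was 0.0750, for ORC1.

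**Figure D5:**
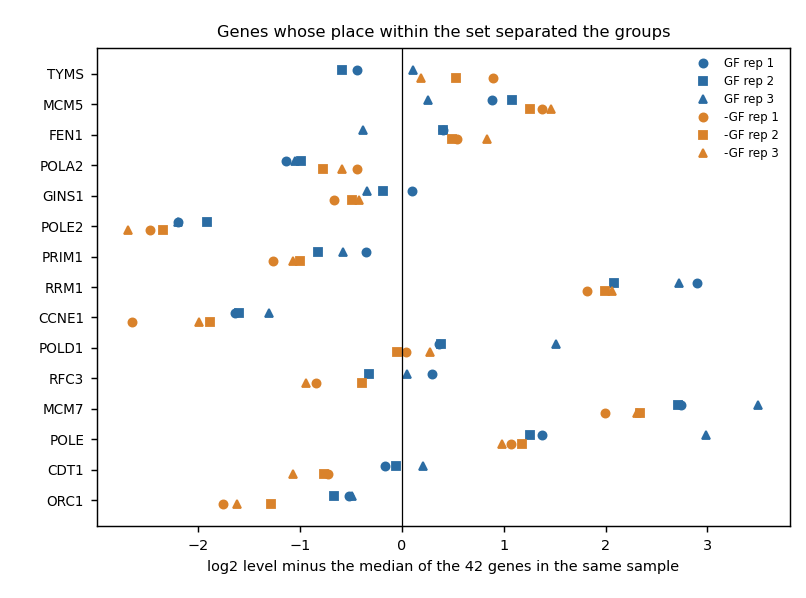
Log2 level minus the median of the 42 genes in the same sample (x axis) for the 15 genes (y axis) whose depleted samples (orange) and growth factor samples (blue) did not overlap on this scale. ORC1, CDT1 and POLE lie lower and TYMS, MCM5 and FEN1 higher in the set without growth factors.

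A wider list of 65 other replication genes was compared in the same way. With limma 0 of 65 passed an adjusted p of 0.05 (6.33% of all genes did) and 5 passed at an unadjusted p of 0.05 (20% of all genes). edgeR called 0 and DESeq2 called 2, beside 5.72% and 12.9% of all genes. The median log2 fold change was -0.16, with 41 of 65 negative, and 7 genes (10.8%) had every depleted sample below every control sample, beside 12.1% of all genes, while 2 (3.08%) had them all above, beside 13.5%. After the length and GC correction 11 (16.9%) were below, beside 16% of all genes, and 2 (3.08%) above, beside 13.5%. The lowest log2 fold change was that of DBF4, the activator of the CDC7 kinase that fires origins. DBF4 read 676.8, 739.9 and 343.3 normalized counts with growth factors, against 208.7, 221.6 and 134.2 under depletion, so the groups did not overlap. Its log2 fold change was -1.59 ± 0.40 with limma's adjusted p = 0.0527, just outside the threshold, and DESeq2 gave an adjusted p = 0.00272. E2F2, an activating E2F factor, followed with 344.6, 577.6 and 88.5 against 173, 99.7 and 98.4 (-1.12 ± 0.66), and SHMT1, which supplies folate units for thymidylate synthesis, with 1494, 1121 and 798.8 against 590.4, 521.9 and 483 (-1.05 ± 0.31, limma adjusted p = 0.0877, DESeq2 adjusted p = 0.0240). The highest was SAMHD1, which breaks down deoxynucleotides, at 399.8, 250.7 and 180 against 810, 428.8 and 500.9 (1.09 ± 0.40, limma adjusted p = 0.168). It was followed by CDKN1A, an inhibitor of CDK2, at 5521, 3383 and 2118 against 3723, 6939 and 9648 (0.89 ± 0.47), and by E2F7, a repressing E2F factor, at 193, 316.4 and 120 against 316.7, 332.4 and 243.7 (0.60 ± 0.41). In these genes the control order replicate 2, replicate 1, replicate 3 was found in 42 of 65, against 40 of 42 in the main set, and the median control SD was 0.64.

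Of 9 markers of proliferating cells, mostly of G2 and mitosis, 0 passed with limma, 0 at an unadjusted p of 0.05, while edgeR and DESeq2 called 0 and had 2 of 9 each at an unadjusted p of 0.05, beside 20.1% and 22.5% of all genes. All 9 log2 fold changes were negative, with a median of -0.63. The lowest were CCNB1, the mitotic cyclin, at 3998, 3758 and 1215 normalized counts with growth factors against 1651, 1139 and 1138 without (-1.03 ± 0.47), its kinase CDK1 at 2785, 2604 and 677.8 against 974.8, 984.8 and 603.7 (-1.03 ± 0.54), and TOP2A, a topoisomerase of dividing cells, at 8145, 7443 and 4571 against 5517, 3621 and 2529 (-0.82 ± 0.39). The least negative were FOXM1, BIRC5 and AURKB, at -0.07, -0.43 and -0.43. Without growth factor replicate 2, FOXM1 was at 0.28 and AURKB at 0.05, and the other markers stayed negative. The range of MKI67 over the samples left out reached 0.05. Depleted replicate 3, the library with the fewest reads, was the lowest sample in 7 of the 9 markers, beside 13.8% of all genes. The order of the markers in the controls depends on the scale. Growth factor replicate 2 was the highest sample in 4 of the 9 markers, and in 9 of 9 after the length and GC correction, and the order replicate 2, replicate 1, replicate 3 was found in 3 of 9 and in 8 of 9. In the 42 replication genes this order was found in 40 and 41. MKI67, which marks cycling cells, read 3726, 3929 and 4047 normalized counts with growth factors, against 5067, 3212 and 1058 under depletion. Relative to its mean log2 level, MKI67 in the controls was at 0.23, 0.31 and 0.35, and at 0.46, 0.68 and -0.03 after the correction, so replicate 3 was the highest control on the first scale and the lowest on the second.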

How the data were processed

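RNA-Seq of 6 MCF10A samples was used, 3 with growth factors and 3 without, grouped by the sample labels. The authors made stranded libraries from total RNA after removal of ribosomal RNA and sequenced them as single-end reads of 100 bases. Per the labels and the submitters' processing notes, cutadapt 1.6, TopHat2 on hg38, HTSeq 0.6 on Gencode v22 and DESeq2 1.8.1 (R 3.2.0) were used. The deposited signal values are normalized counts, which the authors made by dividing each gene's reads by a size factor per sample. They are not divided by gene length. Whole reads were recovered by multiplying back, and 100% of the values came out whole within 0.01 of a read. Depth was 7472418 to 28672630 reads on genes, and a floor of 3 reads equals 1.76 to 6.71 normalized counts. Gene names came from Gencode v44, which names 18913 of the 19198 genes.

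The main test was limma 3.58.1 (lmFit, eBayes with trend, R 4.3.3) on log2(normalized count + 1), run on 16988 genes whose mean reached 10, with Benjamini-Hochberg adjustment over all of them and calls at an adjusted p under 0.05. Fold changes are on this log2 scale, which understates changes of low genes. Errors of fold changes are standard errors. No permutation test of single values was run, since 3 against 3 samples cannot give a p under 0.1. The procedure was tested on simulated data, in which genes varied independently and the planted changes were larger than any estimate of the 42 genes. That simulation does not show how the tests perform on smaller changes or on genes that share a swing between samples. Alternatives were pseudocounts of 0.5 and 10, no filter, a minimum mean of 50, scaling to equal totals, quantile normalization, no trend, a replicate block, removal of the trends with length and GC content, estimated from genes whose mean reached 50 (with and without the block), edgeR 4.0.16 (quasi-likelihood, TMM) and DESeq2 1.42.0 on whole reads, protein-coding genes only, an adjusted p under 0.1, and each sample left out in turn. The set median as a covariate, canonical transcript lengths, and the settings applied to counts of sample order and of the place within the set were chosen after seeing the data. Levels between genes were compared per kilobase of all exons of a gene. Promoter windows are those of RefSeq on GRCh38.p14. All 42 genes of the set are named. Of the 65 other replication genes and the 9 proliferation markers, the 3 with the lowest and the 3 with the highest log2 fold change are named, and MKI67 was added after its values were seen. The 42 genes, the lists and the tests were chosen with earlier results of these data known. Summaries and plots used Python 3.11.15, pandas 2.3.3, numpy 2.4.6, scipy 1.17.1 and matplotlib 3.10.9.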

Additional observations from a re-analysis of the deposited data

How the results depend on the processing

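Limma called 1076 of 16988 genes in the comparison of depleted with growth factor samples. The count was 2183 with DESeq2, 699 with the length and GC correction together with the replicate block, 1640 with the set median as covariate, 1743 at an adjusted p under 0.1, and 453 to 2603 with each sample left out, with 2603 without growth factor replicate 3, 675 and 634 without replicates 2 and 1, and 453 and 467 without depleted replicates 2 and 3. The count of the 42 replication genes called lower was 0 in every setting but 1, with a range of 0 to 3 over the samples left out, and the 3 calls came without growth factor replicate 3. None of the 42 was called higher in any setting run. The count with every depleted sample below every control sample was 0, 2 after the length and GC correction and 0 to 15 with a sample left out, where 15 came without growth factor replicate 3, 3 without depleted replicate 1 and 1 without growth factor replicate 1. Of all genes, 12.1% were below with all samples, 16% after the correction and 26.9% without growth factor replicate 3. The shares below with any other sample left out are not given, so those counts have no background beside them. The count above was 0 to 8 with a sample left out, and 8 came without growth factor replicate 2. Of all genes, 13.5% were above with all samples, and the shares above with a sample left out are not given. Relative to the set median, 11 genes below became 6 after the length and GC correction, and 4 genes above became 4 to 10 with a sample left out, with 10 without growth factor replicate 2 and 7 without depleted replicate 1. Shares over all genes are given for this scale only with all samples and no correction, at 6.85% below and 5.97% above. Of the other replication genes, limma called 0 lower, DESeq2 2 and the length and GC correction 2 (DBF4 and SHMT1 in both), the covariate fit 3, no filter 1, protein-coding genes only 1 and quantile normalization 1. With a sample left out this count was 0 to 6, and that of proliferation markers 0 to 2, the highest of both without growth factor replicate 3. Without that sample 7.05% of all genes were called lower. Over all genes tested, 865 were called lower with DESeq2, 518 with the length and GC correction and 616 in the covariate fit. The count was 374 with no filter, 331 with protein-coding genes only and 392 with quantile normalization. With the stricter 2 words, 12 genes had a promoter match in place of 19. The cause of these differences was not tested. Signs of single genes were unstable, since 20 of 42 changed sign without growth factor replicate 3, 9 without growth factor replicate 2, 8 without depleted replicate 1, 10 in edgeR and 11 in DESeq2.

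No positive correlation was seen between the deviations of same-numbered samples, with values of -0.07, -0.28 and -0.32. Between differently numbered samples the correlations ran from -0.07 to 0.29. Deviations from a mean of 3 samples constrain each other, so these values cannot decide whether same-numbered samples belong together. A shared batch or day was not tested. With the replicate number as a block, limma called 967 genes and 0 of the 42, and the median of the set stayed at 0.01. With 3 samples a group, the 95% intervals of the set reached a median of 1.22 on the log2 scale to either side, so smaller differences were mostly not detectable. The fewest reads behind a value of the set were 25.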

Other observations

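Of the 65 other replication genes, 51 had a window in the promoter collection used. At least 1 of the 4 E2F-type words occurred in 17 of these (33.3%), beside 3.99% of all genes and 51.4% of the 37 genes of the set with a window. RPA3, the small subunit of the single-strand binding protein, was chosen after its values were seen. It read 1155, 1209 and 266.6 normalized counts with growth factors, against 439.3, 293.7 and 360 under depletion. CCNA2, the cyclin of S phase and G2, also chosen after its values were seen, had the same shape, at 2104, 2239 and 447.6 against 816.4, 728.4 and 576.9. In both genes growth factor replicates 1 and 2 were above every depleted sample and replicate 3 was below all of them. With all 6 samples limma called neither gene, with adjusted p-values of 0.384 for RPA3 and 0.472 for CCNA2. Without replicate 3 both were called by limma, with log2 fold changes of -1.71 and -1.63 and adjusted p-values of 0.00956 and 0.00890. In that fit 7.05% of all genes were called lower, and the labels give no ground for leaving the sample out.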
